A study of Homo sapiens with 4 samples.

Results

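The genes described here encode the subunits of the proteasome, its activators and its assembly chaperones. They were taken by name, as every coding gene whose symbol is PSMA, PSMB, PSMC, PSMD, PSME or PSMG followed by a number, a rule that uses the symbol and no measured value. The rule found 47 genes among the 25657 genes and unnamed accessions of the deposited tables, and 41 of the 47 passed the filter on low values that left 9939 genes for testing.

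The proteasome is the protease that degrades most ubiquitin-tagged proteins. Its core particle is a barrel of alpha rings (PSMA genes), which gate the entry, and beta rings (PSMB genes), which hold the catalytic sites. A regulatory particle made of a base, with ATPases (PSMC genes), and a lid (PSMD genes) binds ubiquitinated proteins, removes the ubiquitin and feeds the protein in. Activators (PSME genes) can cap the core in its place, and chaperones (PSMG genes and some PSMD genes) help to assemble the complex.

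The libraries hold RNA that streptavidin beads recovered from DU-145 cells, an established human prostate cancer line. The 2 biotin libraries came from cells transfected with a mix of 2 duplexes of the microRNA miR-26a, both with biotin at the 3′ end, one with thiouridine at nucleotide 7 and the other with thiouridine at nucleotide 17. The 2 control libraries came from cells transfected with a miR-26a duplex without the tag. Both groups therefore carried added miR-26a at 60 nM, given 24 h after seeding, and biotin and thiouridine came or were missing together. Cells were irradiated at 365 nm with 2 J/cm2, which crosslinks thiouridine to RNA held close to it, and extracted RNA stood with the beads for 4 h. The series design calls the 2 libraries of a group biological replicates, and no library of unselected RNA was analysed here. The comparison therefore asks which transcripts were recovered more or less with the tagged than with the untagged microRNA.

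The estimated number of mapped reads was 17570000 and 23640000 in the biotin libraries and 16030000 and 17830000 in the control libraries. On a transcript of 1 kb, 3 reads would amount to 0.127 to 0.171 FPKM in the biotin libraries and 0.168 to 0.187 FPKM in the control libraries, a floor that covers counting error only. On the log2 scale, libraries correlated across genes at 0.97 within biotin, 0.972 within control and 0.876 to 0.883 between the groups. All 6 epithelial markers (KRT8, KRT18, KRT19, EPCAM, CDH1 and EGFR) were detected, summing to 157.2 and 162.0 FPKM in biotin and 157.4 and 189.5 FPKM in control. EGFR alone of the 6 passed the test, with 31.6 and 37.3 FPKM in biotin and 15.9 and 16.7 FPKM in control (limma adjusted p = 0.0137), while the luminal prostate markers KLK2 and KLK3 were listed at 0. TMPRSS2, another luminal marker, stayed at or below 0.0316 FPKM. Markers of blood, fibroblasts and endothelium were at or near 0, the highest being COL1A1 at 0.338 and 0.176 FPKM in biotin and 0.133 and 0.187 FPKM in control.

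Among the proteasome genes, 7 of 13 tested genes of the constitutive core and 4 of 16 tested genes of the regulatory particle were recovered less with tagged miR-26a, none of these genes passed as higher, and a single activator gene, PSME4, was recovered about 5.05 times more. Of the 41 tested genes, 15 were lower in biotin (36.6%, against 9.35% of all tested genes) and 1 was higher (13.2% of all tested genes were), by limma on log2(FPKM + 1) with an adjusted p under 0.05. Another 25 genes passed in neither direction. The log2 fold change was below 0 in 36 of 41, against 55.4% of all tested genes, and its median was -0.53, against -0.06 over all tested genes. In 31 of the 41 (75.6%) both biotin libraries lay below both control libraries, an order that 37.7% of all tested genes showed. In 3 genes, PSME4, PSMD3 and PSMD11, both biotin libraries lay above both controls, against 29.4% of all tested genes. Summed over the 47 genes, the level was 1341 and 1212 FPKM in biotin and 1813 and 1958 FPKM in control, a ratio of 0.677.

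**Figure D1:**
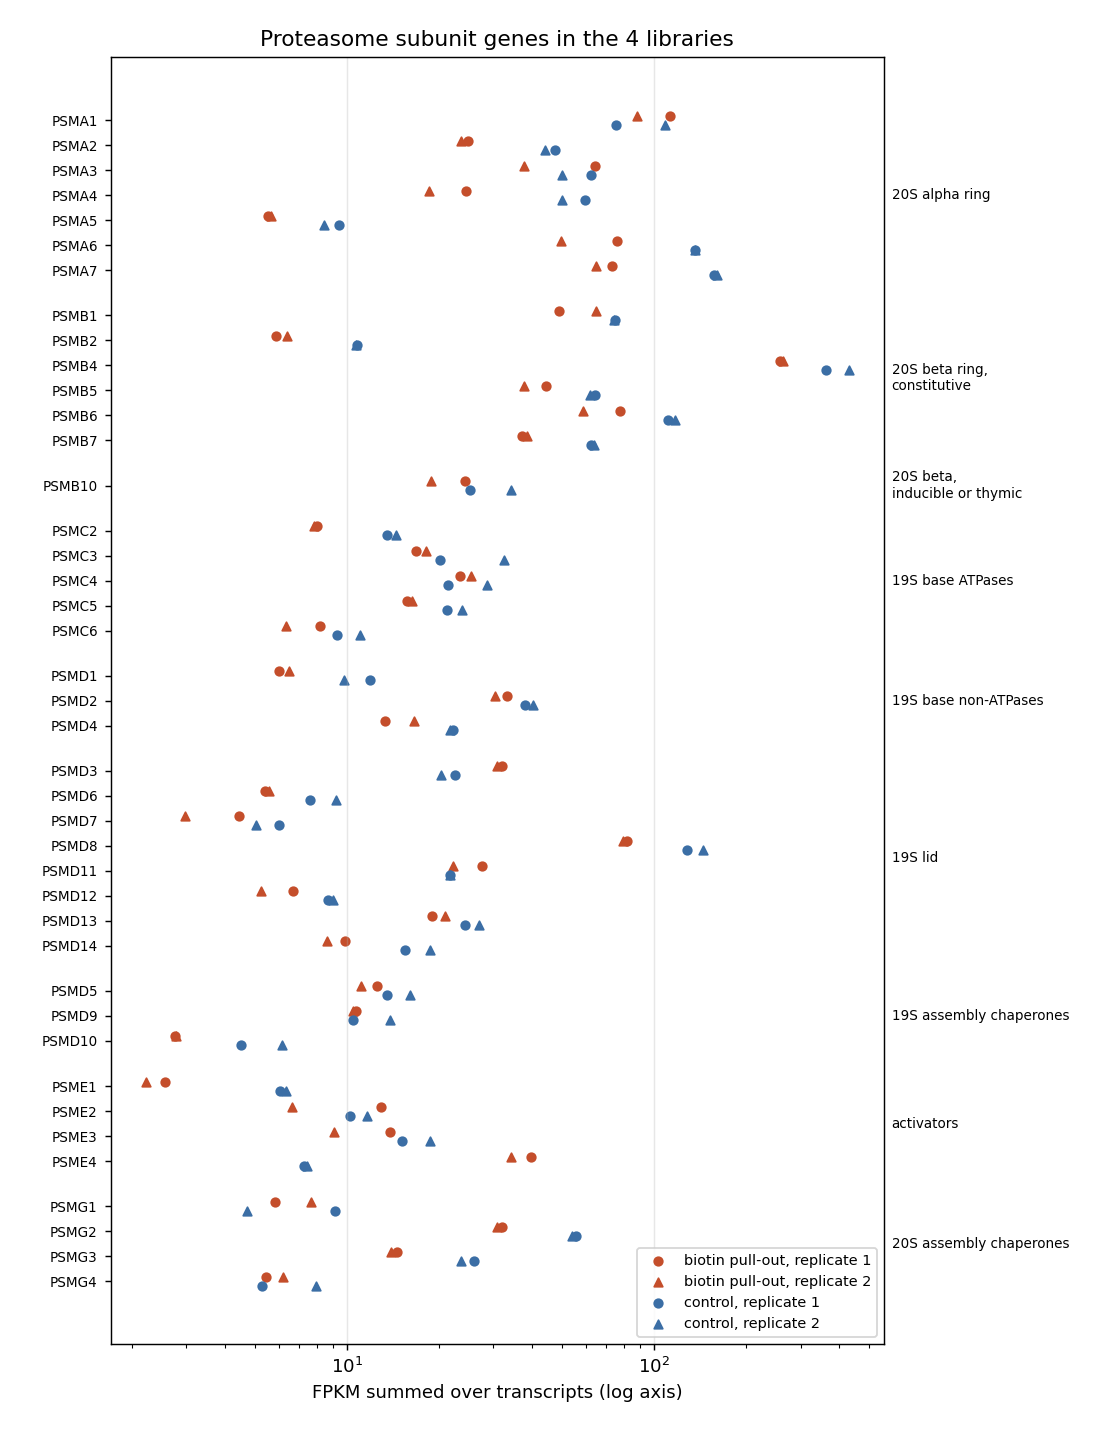
FPKM (log axis) of the 41 tested proteasome genes in the 2 biotin and the 2 control libraries, with a circle for replicate 1, a triangle for replicate 2 and the genes grouped by structural class, where 20S stands for the core and 19S for the regulatory particle. Most pairs of biotin points lie left of the control points, and PSME4, at 39.9 and 34.2 FPKM in biotin against 7.25 and 7.42 FPKM in control, stands out the other way.

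FPKM is a share of each library, so a lower value shows less of a transcript relative to the rest of the recovered RNA. In RNA from a whole culture, fewer cells with a transcript and less of it per cell cannot be told apart, nor can either be told from poorer recovery on the beads. Leaving out any library, which leaves its group with a single one, gave fewer lower genes among the proteasome genes and among all tested genes. The median log2 fold change of the proteasome genes then lay between -0.62 and -0.48, and the log2 fold change of PSME4 between 2.08 and 2.30. With upper-quartile scaling, 1228 of all tested genes were higher and 1388 lower, against 1308 and 929 in the comparison as reported, and the proteasome genes then gave 1 higher and 21 lower.

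**Figure D2:**
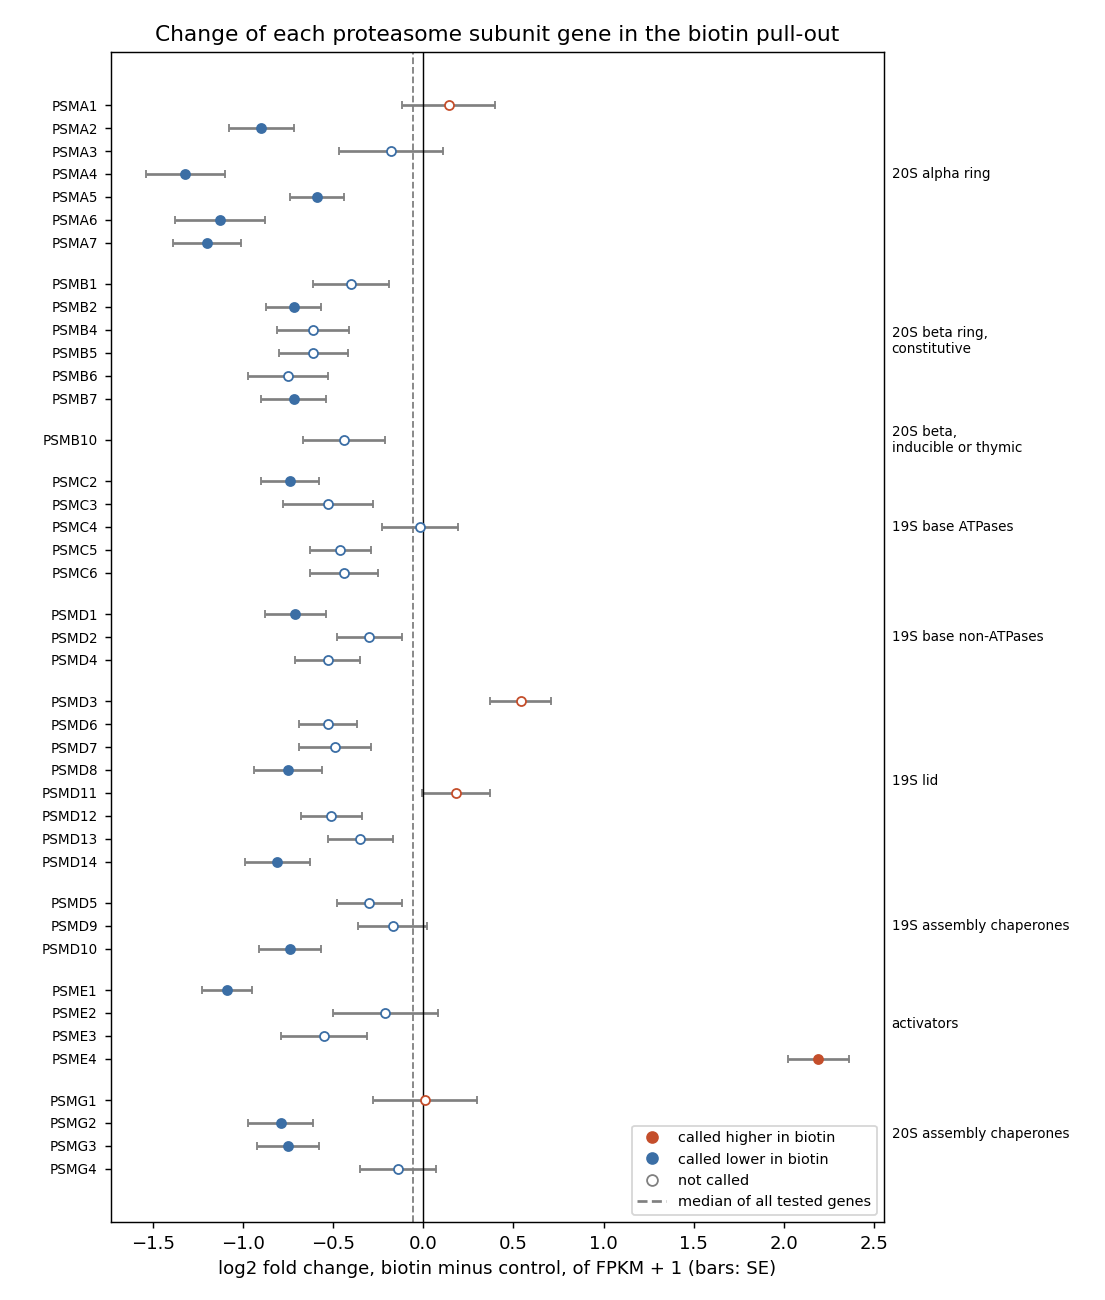
Log2 fold change of each tested proteasome gene, biotin minus control, with its standard error (2 libraries a group) filled points for genes with an adjusted p under 0.05 and a dashed line at the median of all tested genes, -0.06. The points lie mostly left of 0, with a median of -0.53, and PSME4 lies apart at 2.19.

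On the scale of log2(FPKM + 1) the alpha ring held the deepest falls. By the ratio of mean FPKM the activator gene PSME1 fell slightly further, to 0.386, against 0.391 for PSMA4. Of the 7 tested genes of the alpha ring, 5 were lower (71.4%, against 9.35% of all tested genes). None was higher, against 13.2% of all tested genes, and the median log2 fold change was -0.90. PSMA4 was at 24.4 and 18.5 FPKM in biotin against 59.7 and 50.1 FPKM in control, with a log2 fold change of -1.32 ± 0.22 (SE, limma adjusted p = 0.011). PSMA7 was at 72.9 and 64.6 FPKM in biotin against 157.0 and 160.2 FPKM in control (-1.20 ± 0.19, limma adjusted p = 0.01). PSMA6 had 76.0 and 49.8 FPKM in biotin and 136.1 and 135.6 FPKM in control (-1.13 ± 0.25, limma adjusted p = 0.0262). In all 3 the groups stayed apart, and the biotin libraries of PSMA6 differed from each other more than its controls did. PSMA2 fell less, with 24.8 and 23.6 FPKM in biotin and 47.5 and 44.2 FPKM in control (-0.90 ± 0.18, limma adjusted p = 0.0189). PSMA2 overlaps MRPL32 on the opposite strand, a mitochondrial ribosome gene that did not pass (-0.35, limma adjusted p = 0.32). PSMA5 was lower at a low level, with 5.55 and 5.65 FPKM in biotin and 9.39 and 8.44 FPKM in control (-0.59 ± 0.15, limma adjusted p = 0.0397).

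PSMA1 and PSMA3 did not follow the rest of the ring. PSMA1 averaged 100.5 ± 17.6 FPKM in biotin and 91.7 ± 23.5 FPKM in control (SD, n = 2 each; 0.14 ± 0.26, limma adjusted p = 0.71), so the libraries of a group differed by more than the groups. PSMA3 was at 64.4 and 37.6 FPKM in biotin and 62.5 and 50.0 FPKM in control, with overlapping groups. A noncoding variant of PSMA3 carried much of that level, at 46.8 and 24.5 FPKM in biotin and 24.8 and 43.5 FPKM in control. Cufflinks divides reads among the variants of a gene by estimate, and the variant with the highest FPKM was not the same in all libraries for PSMA3, PSMA6, PSMB2, PSMD10, PSMD12, PSMD5 and PSMG4. PSMA8, an alpha subunit known from testis, was listed at 0 in all 4 libraries.

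All 6 tested genes of the constitutive beta ring had both biotin libraries below both controls, an order that 37.7% of all tested genes showed. Of the 6, 2 were lower (33.3%, against 9.35% of all tested genes). PSMB7, which carries the trypsin-like activity, was at 37.2 and 38.5 FPKM in biotin against 62.4 and 63.9 FPKM in control (-0.72 ± 0.18, limma adjusted p = 0.0347). PSMB2, a subunit without catalytic activity, was at 5.89 and 6.39 FPKM in biotin against 10.8 and 10.7 FPKM in control (-0.72 ± 0.15, limma adjusted p = 0.0231). The genes of the other catalytic subunits had log2 fold changes of like size that missed the threshold. PSMB6, with the caspase-like activity, had 77.6 and 58.9 FPKM in biotin and 111.1 and 117.3 FPKM in control (-0.75 ± 0.22, limma adjusted p = 0.0532). PSMB5, with the chymotrypsin-like activity and the target of bortezomib, had 44.5 and 37.7 FPKM in biotin and 64.3 and 62.1 FPKM in control (-0.61 ± 0.19, limma adjusted p = 0.0637). In both genes the lower control stayed above the higher biotin library. PSMB4 had the highest level of all 47 genes, at 256.5 and 262.1 FPKM in biotin and 362.1 and 431.0 FPKM in control (-0.61 ± 0.20, limma adjusted p = 0.0755). PSMB1 had the smallest difference of the ring, at 49.2 and 64.5 FPKM in biotin and 74.7 and 74.1 FPKM in control (-0.40 ± 0.21).

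The inducible beta subunits replace the constitutive catalytic ones after interferon, forming the immunoproteasome, and 1 of these genes was measured. PSMB10 was at 24.2 and 18.8 FPKM in biotin and 25.2 and 34.2 FPKM in control (-0.44 ± 0.23, limma adjusted p = 0.203), with the higher biotin library close to the lower control. PSMB9 and the thymic PSMB11 were listed at 0 throughout, and PSMB8 had a single value above 0, 0.0379 FPKM in biotin replicate 1. In the tables PSMB8 has 16 rows, 14 of them on alternate sequences of the genome, and PSMB9 has 8 rows, 7 of them alternate. PSMB3, a constitutive gene that proliferating cells need, was also listed at 0 and has 3 of its 6 rows on alternate sequences. A value of 0 is therefore given here as listed and not as absence, and the part of the alternate sequences in it was not tested.

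In the base of the regulatory particle, 1 of 5 tested ATPase genes (20.0%) and 1 of 3 non-ATPase genes (33.3%) were lower. Of all tested genes 9.35% were. The ATPase gene PSMC2 was at 7.98 and 7.81 FPKM in biotin against 13.5 and 14.4 FPKM in control (-0.74 ± 0.16, limma adjusted p = 0.0226). PSMC4 was nearly level, averaging 24.3 ± 1.29 FPKM in biotin and 24.9 ± 5.12 FPKM in control (SD, n = 2 each; -0.02 ± 0.21). PSMC1 had only 0.0412 and 0.0476 FPKM in biotin and 0.0673 and 0.0736 FPKM in control, at or under the floor in every library. RefSeq names 13 pseudogenes of PSMC1, and how reads that fit several places were treated is not given in the sources used here. PSMD1, a large scaffold subunit, was at 5.99 and 6.46 FPKM in biotin against 11.9 and 9.81 FPKM in control (-0.71 ± 0.17, limma adjusted p = 0.0311). The scaffold subunit PSMD2 had 33.3 and 30.3 FPKM in biotin and 38.1 and 40.5 FPKM in control and did not pass (-0.30 ± 0.18, limma adjusted p = 0.265).

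In the lid 2 of 8 genes were lower, against 9.35% of all tested genes. The lid also held 2 of the 3 proteasome genes whose biotin libraries both lay above both controls. At 2 of 8 lid genes, that order was no more common than among all tested genes, of which 29.4% showed it. PSMD14, the deubiquitinase that removes ubiquitin chains before degradation, was at 9.88 and 8.64 FPKM in biotin against 15.5 and 18.6 FPKM in control (-0.81 ± 0.18, limma adjusted p = 0.0256). PSMD8 was at 81.9 and 79.4 FPKM in biotin against 128.5 and 144.5 FPKM in control (-0.75 ± 0.19, limma adjusted p = 0.0379). Both biotin libraries of PSMD14 and PSMD8 lay well below the lower control. PSMD3, a subunit of the lid's horseshoe-shaped frame, went the other way, with 31.9 and 30.9 FPKM in biotin and 22.4 and 20.2 FPKM in control. Its log2 fold change of 0.54 ± 0.17 missed the threshold (limma adjusted p = 0.0702) and passed it under median-of-ratios scaling (0.0482) and without a variance trend (0.048). The 2 biotin libraries of PSMD3 were nearly equal and lay above both controls. PSMD11 had 27.5 and 22.2 FPKM in biotin and 21.7 and 21.6 FPKM in control (0.18 ± 0.19, limma adjusted p = 0.506), groups that hardly part. The remaining 4 lid genes, PSMD6, PSMD7, PSMD12 and PSMD13, were below 0 without passing, between -0.53 and -0.35.

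PSME4 encodes PA200, a large nuclear activator that caps the core without ATP and is known for the degradation of acetylated histones. It was at 39.9 and 34.2 FPKM in biotin against 7.25 and 7.42 FPKM in control, averaging 37.0 ± 4.05 and 7.33 ± 0.122 FPKM (SD, n = 2 each). The log2 fold change was 2.19 ± 0.17 (limma adjusted p = 0.00111), rank 134 from the top among the 9939 tested genes. Between 823 and 5738 estimated reads stood behind the value in a library. Its transcript of 7099 nt is the longest among the tested proteasome genes, at chr2:53864067-53970840 (hg38). ACYP2, which overlaps PSME4 on the opposite strand, went the other way, with 0.321 and 0.451 FPKM in biotin and 1.04 and 1.52 FPKM in control (-0.71 ± 0.17, limma adjusted p = 0.0321).

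The other activator genes did not share this rise. PSME1, one of the PA28 subunits that interferon induces, was lower, at 2.56 and 2.21 FPKM in biotin against 6.07 and 6.32 FPKM in control (-1.09 ± 0.14, limma adjusted p = 0.00535). PSME1 overlaps EMC9 on the opposite strand, with 5.86 and 5.73 FPKM in biotin and 7.10 and 0 FPKM in control. Its partner PSME2 was at 12.9 and 6.61 FPKM in biotin and 10.2 and 11.6 FPKM in control, where the biotin libraries enclosed both controls (-0.21 ± 0.29, limma adjusted p = 0.631). The biotin libraries of PSME2 therefore differed more than the groups did. PSME3, the nuclear PA28 subunit, was at 13.8 and 9.06 FPKM in biotin and 15.1 and 18.7 FPKM in control (-0.55 ± 0.24, limma adjusted p = 0.145). Of the 5 interferon-inducible genes among the 47, which are PSMB8, PSMB9, PSMB10, PSME1 and PSME2, 3 were tested and only PSME1 passed. It was lower, 33.3% of the 3, against 9.35% of all tested genes.

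**Figure D3:**
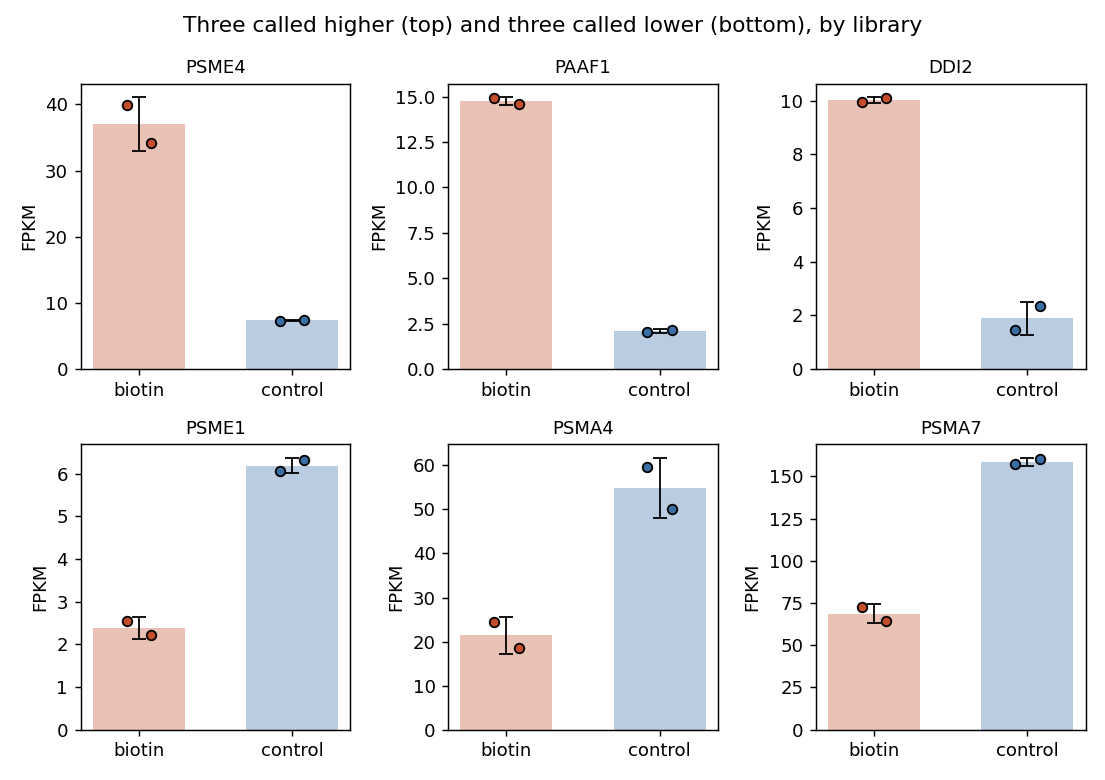
FPKM of PSME4, PAAF1 and DDI2 (top row) and PSME1, PSMA4 and PSMA7 (bottom row), with points for libraries, bars for means and whiskers for the SD of 2 libraries a group. In the top row every biotin point lies above the controls, by 5.05, 7.03 and 5.28 times in the means, and in the bottom row every biotin point lies below them.

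A microRNA pairs with its targets mainly through its seed, nucleotides 2 to 8. The mature miR-26a is shown with the stretches of coding sequence that hold a match to the whole seed. These stretches come from proteasome genes and from the called associated genes DDI2 (higher) and USP14 (lower). They are places where the tagged strand could pair by its whole seed. RefSeq (GRCh38.p14) places the same mature sequence of 22 nt in MIR26A1 at chr3:37969413-37969434 on the plus strand and in MIR26A2 at chr12:57824658-57824679 on the minus strand, and its nucleotides 7 and 17 are both U. In the lines here, written 5′ to 3′, capitals mark the seed in the microRNA and the match TACTTGA in the transcripts, which were read from GENCODE 29 on the transcript's own strand.
hsa-miR-26a-5p: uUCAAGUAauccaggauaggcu
PSME4, first match: cctgaattggtaataccccctgTACTTGAa
PSME4, second match: ataaggaaacttcttaaccacaTACTTGAt
PSMD7: ttggggtcatggcaaaagaaagTACTTGAt
DDI2: tttttgccatgttccttctctaTACTTGAg
USP14: caagatcagccggctgcctgctTACTTGAc
The first PSME4 stretch lies at chr2:53931837-53931866 on the minus strand. The second crosses a splice junction, and its match lies at chr2:53908553-53908559 on the minus strand. The matches start at bases 1307 and 2636 of a coding sequence of 5532 nt, and the first is followed by an A, the base that faces nucleotide 1 of a microRNA. The PSMD7 stretch lies at chr16:74300158-74300187 on the plus strand, with the match from base 140 of the coding sequence, and that of DDI2 at chr1:15649743-15649772 on the plus strand, with the match from base 935. The USP14 stretch lies at chr18:203100-203129 on the plus strand, with the match from base 967. DDI2 also has a match followed by an A in the 3′ UTR of its GENCODE 29 transcript, at chr1:15661517-15661523, past the end of the deposited transcript.

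No match to the whole seed lay in a 3′ UTR of the 41 tested proteasome genes, whereas 1074 of 9450 tested coding genes (11.4%) held one there. A shorter match, to nucleotides 2 to 7, lay in the 3′ UTR of 6 of the 41 (14.6%), against 33.7% of tested coding genes. Proteasome genes have short 3′ UTRs, with a median of 242 nt against 984 nt over the tested coding genes. In coding sequence, 2 of 41 genes (4.88%) held a match to the whole seed, PSME4 and PSMD7, against 626 of 9450 (6.62%). PSME4 was among the 66 genes (0.698%) with at least 2 coding matches, and 31.4% of the 366 tested genes with coding sequences of 5000 nt or more held at least 1. PSMD7, the catalytically inactive partner of PSMD14, held a match and was at 4.45 and 2.97 FPKM in biotin and 6.01 and 5.05 FPKM in control (-0.49 ± 0.20, limma adjusted p = 0.125). Of the 41 transcripts used, 24 were linked to the deposited one by accession and the others were those of the closest length, so a match may lie outside the transcript that was measured. The transcript used for PSMG1 had a 3′ UTR of 0 nt, so no 3′ UTR of that gene was searched. A match describes letters and shows no binding.

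**Figure D4:**
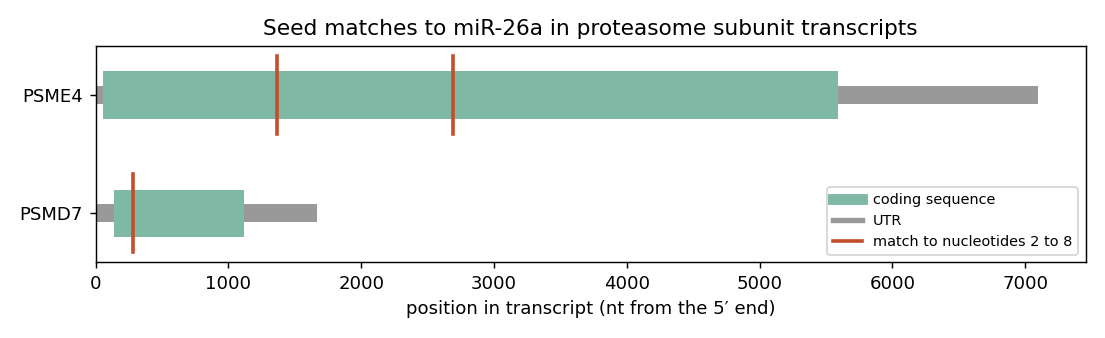
Position of matches to the miR-26a seed along the transcripts that hold one, with distance from the transcript start in nt and the coding sequence drawn thicker than the untranslated ends. PSME4 carries 2 matches inside its coding sequence of 5532 nt, and PSMD7 carries 1 near the start of its own.

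Chaperones of the core were lower in 2 of 4 genes (50.0%, against 9.35% of all tested genes). PSMG2, which pairs with PSMG1 to assemble the alpha ring, was at 32.1 and 30.7 FPKM in biotin against 55.6 and 54.2 FPKM in control (-0.79 ± 0.18, limma adjusted p = 0.0274). The libraries of each group were close to each other and the groups were far apart. PSMG1 itself was at 5.81 and 7.65 FPKM in biotin and 9.13 and 4.71 FPKM in control (0.01 ± 0.29), with the controls on either side of both biotin libraries, and most of that level came from a noncoding variant. Coding transcripts of PSMG1 were at only 2.71 and 2.32 FPKM in biotin and 0.944 and 1.44 FPKM in control. The coding variant above 0 was not the same in all libraries. Over coding transcripts alone the log2 fold change of PSMG1 was 0.69 and passed the threshold (limma adjusted p = 0.046). PSMG3 was at 14.3 ± 0.530 FPKM in biotin against 24.7 ± 1.77 FPKM in control (SD, n = 2 each; -0.75 ± 0.17, limma adjusted p = 0.0278), and its partner PSMG4 was at 5.46 and 6.20 FPKM in biotin and 5.29 and 7.93 FPKM in control (-0.14 ± 0.21).

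Among the chaperones of the regulatory particle, 1 of 3 was lower (33.3%, against 9.35% of all tested genes). PSMD10, also known as the oncoprotein gankyrin, was at 2.75 and 2.77 FPKM in biotin against 4.52 and 6.13 FPKM in control (-0.74 ± 0.17, limma adjusted p = 0.0298). PSMD9 averaged 10.6 ± 0.154 FPKM in biotin and 12.2 ± 2.33 FPKM in control (SD, n = 2 each), with groups that overlapped. PSMD5 had 12.5 and 11.1 FPKM in biotin and 13.5 and 16.0 FPKM in control and did not pass (-0.30 ± 0.18).

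Genes that work with the proteasome without carrying such a symbol were called lower about as often as all tested genes. Of 32 such genes, all tested, 3 were lower (9.38%, against 9.35% of all tested genes) and 2 were higher (against 13.2% of all tested genes), with a median log2 fold change of -0.15. By direction they also leaned down, with 26 of 32 below 0, against 55.4% of all tested genes. In 16 of the 32 (50.0%) both biotin libraries lay below both controls, against 37.7% of all tested genes. PAAF1, which binds the ATPases and is known to hold back the assembly of the regulatory particle with the core, was at 14.9 and 14.6 FPKM in biotin against 2.03 and 2.16 FPKM in control (2.35 ± 0.14, limma adjusted p = 0.000536). DDI2, the protease that activates the transcription factor of proteasome genes, NFE2L1, was at 9.94 and 10.1 FPKM in biotin against 1.45 and 2.33 FPKM in control (1.94 ± 0.19, limma adjusted p = 0.00196). In both genes the biotin libraries were nearly equal and lay far above the higher control. NFE2L1 itself had 5.88 and 6.19 FPKM in biotin and 7.12 and 6.82 FPKM in control and did not pass (-0.18, limma adjusted p = 0.4). Among the lower genes were USP14, a deubiquitinase that docks on the base (-0.54 ± 0.15, limma adjusted p = 0.0442), and RPS27A, which encodes ubiquitin fused to a ribosomal protein (-0.86 ± 0.19, limma adjusted p = 0.0246). RefSeq names 20 pseudogenes of RPS27A, so its value is uncertain. No seed match was found in the PAAF1 transcript.

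Among 10 genes of antigen processing that interferon induces, 7 were tested and B2M, the light chain of class I molecules, was lower, at 5.22 and 3.60 FPKM in biotin against 8.32 and 9.92 FPKM in control (-0.92 ± 0.20, limma adjusted p = 0.0252). That is 14.3% of the 7, against 9.35% of all tested genes. None was higher, against 13.2% of all tested genes.

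Transcript length moved with recovery. Proteasome transcripts are short, with a median of 1466 nt against 2847 nt over all tested genes, and over all 9939 genes the log2 fold change correlated with length at a Spearman rho of 0.21. Over the 41 proteasome genes the coefficient was 0.27, and without PSME4 it was 0.21. Level moved with recovery too, and the median control level was 21.3 and 21.6 FPKM for tested proteasome genes against 4.15 and 4.38 FPKM for all tested genes. The log2 fold change correlated with the mean control level, which itself enters it, at -0.28 over all genes. Over the proteasome genes that coefficient was -0.27, and -0.24 without PSME4. Length and level correlated at -0.28 over all genes and -0.43 over the proteasome genes. These describe genes measured in the same libraries, which are not independent replicates.

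Within length classes, up to 1000 nt 3 of 10 proteasome genes were lower (30.0%), against 31.6% of 836 genes of that length. From 1000 to 2000 nt 8 of 20 were lower (40.0%), against 13.2% of 2166, and the medians of the log2 fold change were -0.53 for the proteasome genes and -0.17 for all genes of that length. From 2000 to 4000 nt 3 of 9 were lower (33.3%), against 6.39% of 3864, with medians of -0.30 and -0.02. Above 4000 nt lay PSMB2, which was lower, and PSME4, which was higher, and of all 3073 genes of that length 4.30% were lower and 15.6% higher. The parts of length and of level in the lower values of the proteasome genes were not tested.

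**Figure D5:**
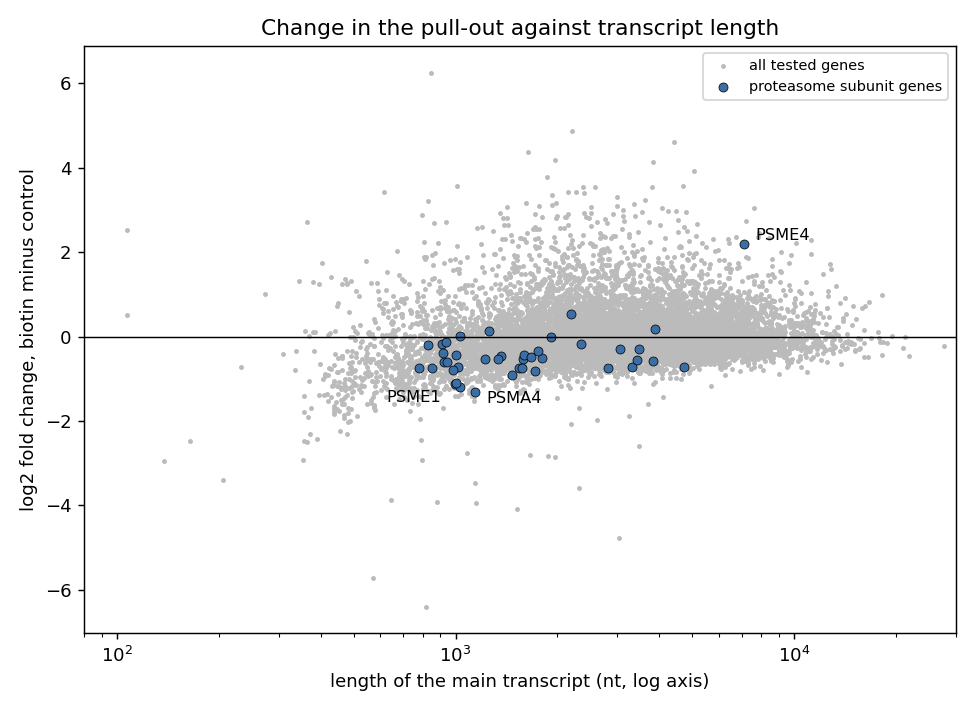
Log2 fold change, biotin minus control, against the length of the main transcript in nt on a log axis, with proteasome genes coloured over all 9939 tested genes in grey. Short genes lie lower as a whole, with a median of -0.49 up to 1000 nt and 0.01 above 4000 nt, and PSME4 lies high among the long ones.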

How the data were processed

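RNA pulled out on streptavidin beads was sequenced from 2 biotin and 2 control cultures. Stranded total RNA libraries (TruSeq) were read on a HiSeq2000, per the labels' protocols. The submitters' processing notes name hg38, TopHat2 2.0.9 and Cufflinks 2.1.1, besides FastQC 0.10.1, Cuffdiff and cutadapt. Which annotation and which strand setting served is not stated there, so reads of overlapping or near-identical genes could be assigned to either. The values deposited by the authors are FPKM, fragments per kilobase of transcript scaled to each library's mapped fragments, in 53209 transcript rows a library. Transcript coverage, another column per the file headers, was used here only to estimate depth, and transcript length only to describe genes.

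Accessions (98.7% of 46699) were named from RefSeq and GENCODE 29, rows were summed per gene, and 22 genes with a failed row were left out. Genes with at least 1 FPKM in at least 2 libraries were compared by limma 3.58.1 in R 4.3.3, with a variance trend, on log2(FPKM + 1), two-sided, with Benjamini-Hochberg adjustment over all 9939 genes and a threshold of 0.05. The pseudocount of 1 understates changes of low genes. The 2 residual degrees of freedom were joined by 4.21 borrowed across genes. Members, lists and the rule for named genes were chosen with earlier results of these data known: every gene past the threshold, the extremes of each structural class, the highest 6, those listed at 0 and the inducible ones, with the other genes named by value added after their values were seen. Values of some listed genes are not reported here.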

Additional observations from a re-analysis of the deposited data

How the results depend on the processing

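Over 17 alternatives, of which the one on coding transcripts was chosen after seeing the data, the 16 called proteasome genes kept their direction wherever they were tested, and PSME4, PAAF1 and DDI2 stayed higher. PSME1 and PSMD10 were not tested at a mean of at least 5 FPKM. The number of lower proteasome genes, 15 as reported, was 6 with no filter on low values, 3 over single transcripts and 0 to 4 with one library left out. Of the 15, 11 passed in no such fit. The number higher was 2 with median-of-ratios scaling, with no variance trend and over coding transcripts. Their median log2 fold change was -0.58 and -0.39 with pseudocounts of 0.1 and 5, -0.61 with upper-quartile scaling, -0.46 with median-of-ratios scaling, -0.59 after quantile normalization and -0.62 to -0.48 with one library left out. Of the associated genes, 0 were lower with no filter and over single transcripts, 1 with short RNA genes kept, 5 at a mean of at least 5 FPKM, with upper-quartile scaling and after quantile normalization, and 0 to 1 with one library left out. Of all genes, 653 were higher and 231 lower with no filter, 425 and 157 over single transcripts, and 195 to 680 and 32 to 220 with one library left out.

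The labels do not say that replicate numbers pair the libraries, and deviations of same-numbered libraries correlated at 0.0188 across genes. With a replicate block, 8 proteasome genes, 0 associated genes and 543 of all genes were lower.

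Genes near 0 changed sign. PSMG1 was at -0.0028 with a pseudocount of 5, -0.06 with upper-quartile scaling, -0.04 after quantile normalization and -0.30 over single transcripts, and PSMC4 at 0.05 with median-of-ratios scaling. With one library left out, the log2 fold change ran from -0.40 to 0.43 for PSMG1, -0.22 to 0.18 for PSMC4, -0.12 to 0.41 for PSMA1, -0.64 to 0.23 for PSME2 and -0.35 to 0.01 for PSMD9. The cause was not tested. Depth limits genes near the floor, such as PSMC1.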

Other observations

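Replicates of a group also differed from each other among the proteasome genes. The ratio of replicate 1 to replicate 2 had a median of 1.05 in biotin and 0.960 in control over the 41 tested genes. In biotin it ranged from 0.759 for PSMG1 to 1.95 for PSME2, and in control from 0.620 for PSMC3 to 1.94 for PSMG1. Of the 47 genes, 43 had a transcript above 0 and 18 had at least 2.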
